A study of Canis lupus familiaris with 12 samples.

Results

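The genes described here are the interferon-stimulated antiviral genes of a canine immuno-oncology panel, chosen by probe name: ISG15, ISG20, BST2 and DDX58, and any probe whose name starts with IFI, MX or OAS followed by a digit, with IFIT or with IFIH. The rule found 10 of 780 endogenous probes, namely ISG15, ISG20, IFI35, MX1, OAS2, OAS3, IFIT2, BST2, DDX58 and IFIH1. RNA of lymph nodes from 6 dogs with sinonasal cancer was counted by NanoString nCounter, in which barcoded probes hybridise to each transcript and are counted without amplification. Every dog was given stereotactic body radiation therapy (SBRT) to the tumor in 3 fractions of 10 Gy. In 3 dogs (irradiated nodes) elective nodal irradiation (ENI) also covered the submandibular and retropharyngeal nodes of both sides, and in 3 dogs (non-irradiated nodes) no node was targeted. Per the study, the mandibular node on the side of the tumor was removed 2 weeks after SBRT. No dog without radiation and no node from before treatment was compared, so higher and lower below mean relative to the nodes of the other 3 dogs.

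The dogs with irradiated nodes were 7, 11 and 14 years old at diagnosis (1 female, 2 males, all spayed or neutered) and had a carcinoma, a sarcoma and a malignant tumor of unspecified type. Those with non-irradiated nodes were 3, 6 and 9 years old (2 females, 1 male, all spayed or neutered) and had 2 carcinomas and 1 malignant tumor. The groups thus differed in age, sex and tumor type, and with 3 dogs each these cannot be told apart from nodal irradiation. Per the labels each dog gave 2 samples, whose difference is not stated. The labels name lymph node as the tissue, whereas the extraction protocol speaks of frozen tumor. Lymphocyte genes were at high levels in both groups: the B cell gene CD79A had authors' means of 3728 normalized counts with ENI and 4075 without, and the T cell gene CD3E had 2627 and 4393. The values are 1 authors' mean and 1 authors' SD for each gene and group; single samples were not analysed here. The depth per sample is therefore unknown, and the lowest or highest node of a group cannot be given.

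Cells that detect viral nucleic acid through sensors such as RIG-I (encoded by DDX58) and MDA5 (encoded by IFIH1) secrete type I interferon. The receptor activates the kinases JAK1 and TYK2, and these set off transcription factors that switch on a set of antiviral genes in the same cell and its neighbours. Interferon gamma, made by T and natural killer cells, induces an overlapping set, including genes of antigen presentation. DNA that leaks from damaged nuclei can start the same programme through the sensor cGAS and its adaptor STING.

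ISG20 had a higher mean in irradiated nodes and passed the test only when the 2 samples of a dog were treated as independent. When they were assumed identical, 0 of the 10 genes passed. ISG15 and IFI35 had higher means without passing in either case, and the other 7 genes lay within 0.24 log2 units of equality in either direction. Of the 10 genes 5 had a higher and 5 a lower mean in irradiated nodes, where 45.1% of all genes were higher. Their median log2 ratio was 0.05, beside -0.05 over all 780 genes, and 0 of them had a log2 ratio beyond 1 in size. The means of the 10 genes ranged from 104 to 1259 normalized counts, well above the panel's dimmest genes. Each probe binds with its own efficiency, so the level of one gene is not set against that of another.

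ISG20 encodes an exonuclease that degrades single-stranded RNA. Its authors' mean was 1069 normalized counts (authors' SD 220) in irradiated and 655 (authors' SD 134) in non-irradiated nodes. The mean less 1 SD of irradiated nodes, 849, lay above the mean plus 1 SD of non-irradiated nodes, 790. The level was 1.63-fold higher (log2 ratio 0.71 ± 0.18 SE over samples, 95% interval 0.32 to 1.09), with an adjusted p of 0.0434 by limma's moderated variances and Benjamini-Hochberg adjustment over 780 genes. Of the 10 genes 1, ISG20, passed, where 3.59% of all genes passed, 1.67% higher and 1.92% lower. The call depended on treating the 2 samples of a dog as independent. Under the assumption that they were identical, the interval widened to -0.07 to 1.48 and the adjusted p was 0.999, and in that case 0 of 780 genes passed. The call also ended when the log2 SD was recovered in another way from the deposited SD (adjusted p = 0.0621 with the mean taken as arithmetic and 0.0746 to first order).

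ISG15 encodes a small ubiquitin-like protein that is joined to other proteins and is also secreted. It had an authors' mean of 217 normalized counts (authors' SD 119) in irradiated and 112 (authors' SD 32.6) in non-irradiated nodes. The bands of 1 SD around the means overlapped, because the SD of irradiated nodes was 3.64 times that of non-irradiated nodes. The ratio of 1.94-fold was the largest of the 10 genes and ranked 10 from the top of 780, but it did not pass over all genes (log2 ratio 0.96 ± 0.29 SE, 95% interval 0.33 to 1.58, adjusted p = 0.0759). With the samples of a dog assumed identical the adjusted p was 0.982.

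IFI35 encodes an interferon-induced leucine zipper protein. Its authors' mean was 373 normalized counts (authors' SD 35.0) in irradiated and 280 (authors' SD 57.1) in non-irradiated nodes. The bands of 1 SD met without overlapping, at 338 above and 337 below. The ratio was 1.33-fold (log2 ratio 0.41 ± 0.16 SE, 95% interval 0.08 to 0.75, adjusted p = 0.133) and did not pass. ISG20 and IFI35 were the 2 genes of the 10 whose bands were separate, as were those of 67 of 780 genes (8.59%). ISG20, ISG15 and IFI35 had an unadjusted p under 0.05, each with a higher mean, beside 21.9% of all genes at that p and 8.46% with a higher mean. With the samples of a dog assumed identical only ISG15 did, beside 4.49% of all genes in either direction.

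**Figure D1:**
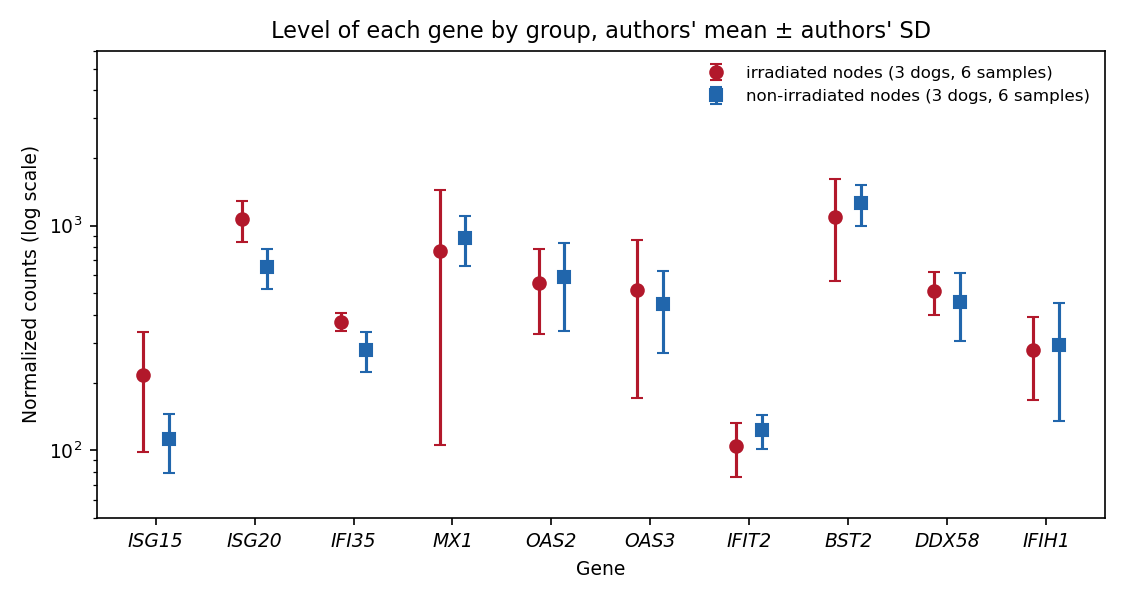
Authors' mean normalized counts (points, log scale) with the authors' SD (bars) for the 10 antiviral genes in irradiated (red) and non-irradiated (blue) nodes, 6 samples of 3 dogs each. The bands are separate for ISG20 and IFI35, and the bar of MX1 in irradiated nodes reaches from 105 to 1437.

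The means of MX1, BST2 and IFIT2, which hinder viruses directly, were close to equal. MX1, a dynamin-like GTPase that traps viral nucleocapsids, had authors' means of 771 normalized counts (authors' SD 666) in irradiated and 882 (authors' SD 219) in non-irradiated nodes. The log2 ratio was -0.19 ± 0.36 SE (95% interval -0.96 to 0.57, adjusted p = 0.813), so that a fall of 1.94-fold or a rise of 1.48-fold would both lie at the edge of the interval. BST2, or tetherin, holds budding virus at the cell surface. It had 1091 (authors' SD 524) and 1259 (authors' SD 260) normalized counts, a log2 ratio of -0.21 ± 0.26 SE (adjusted p = 0.697). IFIT2, which binds the translation machinery and viral RNA, had 104 (authors' SD 28.0) and 123 (authors' SD 21.3) normalized counts and the lowest ratio of the 10 genes, -0.24 ± 0.19 SE (adjusted p = 0.512). For all 3 the bands of 1 SD overlapped.

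OAS2 and OAS3 make the oligoadenylate messenger that activates the RNA-degrading enzyme RNase L, and they lie side by side with OAS1 in the dog genome (assembly UU_Cfam_GSD_1.0). OAS2 had authors' means of 556 normalized counts (authors' SD 228) in irradiated and 590 (authors' SD 249) in non-irradiated nodes, a log2 ratio of -0.09 ± 0.29 SE (95% interval -0.70 to 0.53, adjusted p = 0.904). OAS3 had 516 (authors' SD 345) and 449 (authors' SD 177), a log2 ratio of 0.20 ± 0.34 SE (95% interval -0.52 to 0.93, adjusted p = 0.787). These neighbours had ratios of opposite sign, each smaller than its SE.

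The means of the sensors were close as well. DDX58 had authors' means of 512 normalized counts (authors' SD 113) in irradiated and 459 (authors' SD 154) in non-irradiated nodes, with a log2 ratio of 0.16 ± 0.22 SE (95% interval -0.31 to 0.63, adjusted p = 0.739). IFIH1 had 280 (authors' SD 113) and 293 (authors' SD 159), with a log2 ratio of -0.06 ± 0.31 SE (95% interval -0.73 to 0.61, adjusted p = 0.944). A log2 ratio as large as that of ISG20, 0.71, lay inside the interval of OAS3 and above those of the other 6 genes near equality. With the samples of a dog assumed identical it lay inside 5 of these 7 intervals and above those of BST2 (upper limit 0.66) and IFIT2 (upper limit 0.54). Whether the ratio of ISG20 differed from those of the other 9 genes was not tested, since all were measured in the same samples and their covariance is not known from group summaries.

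**Figure D2:**
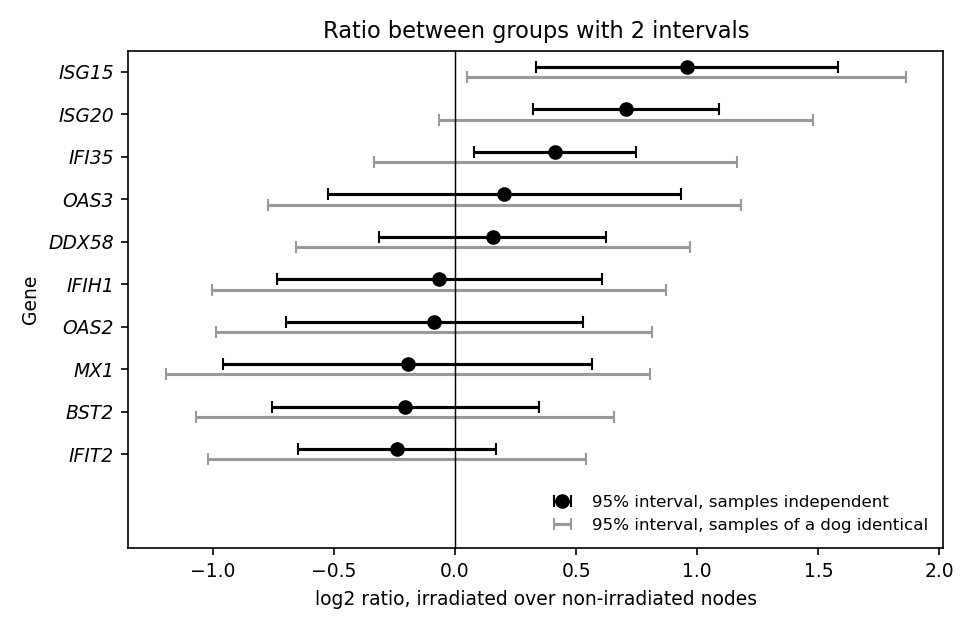
Log2 ratio between irradiated and non-irradiated nodes for each antiviral gene (points), with the 95% interval when the 2 samples of a dog are taken as independent (black) or as identical (grey). The black intervals of ISG15, ISG20 and IFI35 lie above 0, and of the grey intervals only that of ISG15 does, from 0.05 to 1.86.

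The spread within each group was taken as the SD on the log2 scale, recovered from the authors' SD and mean. For MX1 it was 0.92 in irradiated and 0.34 in non-irradiated nodes, a ratio of 2.67 that lay at percentile 96.4 of all genes. BST2 had 0.61 and 0.29 (ratio 2.09, percentile 92.8), ISG15 0.67 and 0.40 (ratio 1.69, percentile 86.8), IFIT2 0.37 and 0.25 (ratio 1.51, percentile 83.7) and OAS3 0.77 and 0.52 (percentile 83.5). These 5 genes varied more among irradiated nodes, and ISG20, at 0.29 in both groups, hardly differed. IFI35 went the other way, with 0.13 in irradiated and 0.29 in non-irradiated nodes, as did DDX58 (0.31 and 0.45), IFIH1 (0.52 and 0.67) and, by little, OAS2 (0.53 and 0.55). In all, 6 of the 10 genes had the larger spread in irradiated nodes, beside 270 of 780 genes (34.6%), and the median ratio of spreads over all genes was 0.80. The median spread of the 10 genes was 0.53 in irradiated and 0.37 in non-irradiated nodes, against 0.32 and 0.43 over all genes. These spreads are descriptions with no test. Whether the same nodes were high for MX1, BST2, ISG15 and OAS3, and whether they came from 1 dog, is not known from group summaries.

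**Figure D3:**
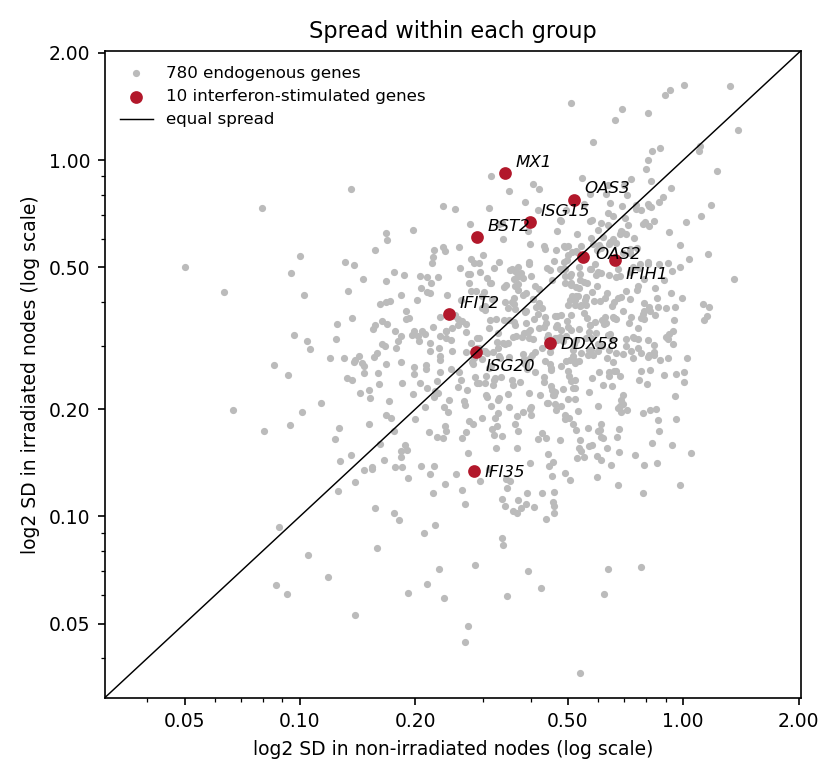
SD on the log2 scale in non-irradiated (x axis) against irradiated nodes (y axis), both on log scales, for 780 endogenous genes (grey) and the 10 antiviral genes (red); the line marks equal spread. MX1, BST2, ISG15, OAS3 and IFIT2 lie above the line, ISG20 and OAS2 on it, and IFI35, DDX58 and IFIH1 below it.

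The measured part of the pathway that feeds these genes was examined from the signal inward. Of the listed symbols, 3 of 10 ligands, 3 of 6 receptors and 6 of 7 interferon regulatory factors were measured. So were 11 of 19 sensor and adaptor symbols (older symbols included) and 24 of 56 other interferon-stimulated genes. cGAS and STING were not among those measured, so neither gene was examined. For comparison with the counts below, 3.59% of all genes passed, 21.9% had an unadjusted p under 0.05 and 45.1% were higher. The ligands were dim: IFNB1 had authors' means of 15.4 normalized counts with and 13.9 without ENI, IFNA7 had 77.2 and 72.5, and IFNG had 48.5 and 40.3. All 3 were slightly higher in irradiated nodes, with log2 ratios of 0.15 ± 0.37 SE, 0.09 ± 0.37 SE and 0.27 ± 0.35 SE. By limma's test 0 of the ligand and receptor genes passed, and 0 had an unadjusted p under 0.05. The receptor genes had ratios near 0, with 0.02 ± 0.18 SE for IFNAR2, -0.07 ± 0.13 SE for IFNAR1 and 0.13 ± 0.12 SE for IFNGR1. Of 5 signalling genes 3 were lower (median -0.23), 0 passed and 1, JAK1, had an unadjusted p under 0.05. The kinase JAK1 had 2210 normalized counts (authors' SD 769) in irradiated and 3383 (authors' SD 346) in non-irradiated nodes, a log2 ratio of -0.61 ± 0.20 SE (adjusted p = 0.0931), while TYK2 had -0.25 ± 0.15 SE and JAK2 0.24 ± 0.18 SE. The factors STAT2 (0.03 ± 0.19 SE) and STAT3 (-0.23 ± 0.17 SE) did not pass either.

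Of 6 interferon regulatory factors 5 were higher (median 0.18), 0 passed and 0 had an unadjusted p under 0.05. The highest were IRF4, which plasma cells require, at 0.48 ± 0.32 SE and IRF5 at 0.45 ± 0.25 SE, and the lowest were IRF8, a factor of dendritic and germinal centre B cells, at -0.40 ± 0.30 SE and IRF2 at 0.05 ± 0.12 SE. Of 11 sensors and adaptors, DDX58 and IFIH1 included, 7 were lower (median -0.07) and 0 passed. Among the lower genes 3 had an unadjusted p under 0.05, beside 13.5% of all genes lower at that p. The lowest was TLR3, the endosomal receptor of double-stranded RNA, with 101 normalized counts (authors' SD 32.9) in irradiated and 170 (authors' SD 24.8) in non-irradiated nodes and a log2 ratio of -0.75 ± 0.20 SE (adjusted p = 0.0518). TLR8 followed at -0.53 ± 0.23 SE without passing, and the highest was the kinase IKBKE at 0.18 ± 0.17 SE, ahead of DDX58. The single measured inhibitor, SOCS1, had 0.22 ± 0.22 SE.

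Of 24 other interferon-stimulated genes 15 were higher and 9 lower (16 and 8 under either centring, median 0.17), where 45.1% of all genes were higher. Among the 24, 1 passed and 4 had an unadjusted p under 0.05, beside 3.59% and 21.9% of all genes. PSMB9, an immunoproteasome subunit that interferon gamma induces, had 6856 normalized counts (authors' SD 630) in irradiated and 4292 (authors' SD 659) in non-irradiated nodes (log2 ratio 0.68 ± 0.14 SE, adjusted p = 0.0215, and 0.999 with the samples of a dog assumed identical). PSMB8, its partner subunit, stood at 0.68 ± 0.20 SE on the log2 scale (adjusted p = 0.0622). At the other end, SIGLEC1, an interferon-inducible lectin of sinus macrophages, had 173 normalized counts (authors' SD 128) in irradiated and 414 (authors' SD 129) in non-irradiated nodes, a log2 ratio of -1.26 ± 0.34 SE (adjusted p = 0.0518). TAPBP, which loads peptides on MHC class I, was the next lowest at -0.21 ± 0.26 SE. Interferon-stimulated genes thus lay on both sides of 0 within this list as within the antiviral genes.

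**Figure D4:**
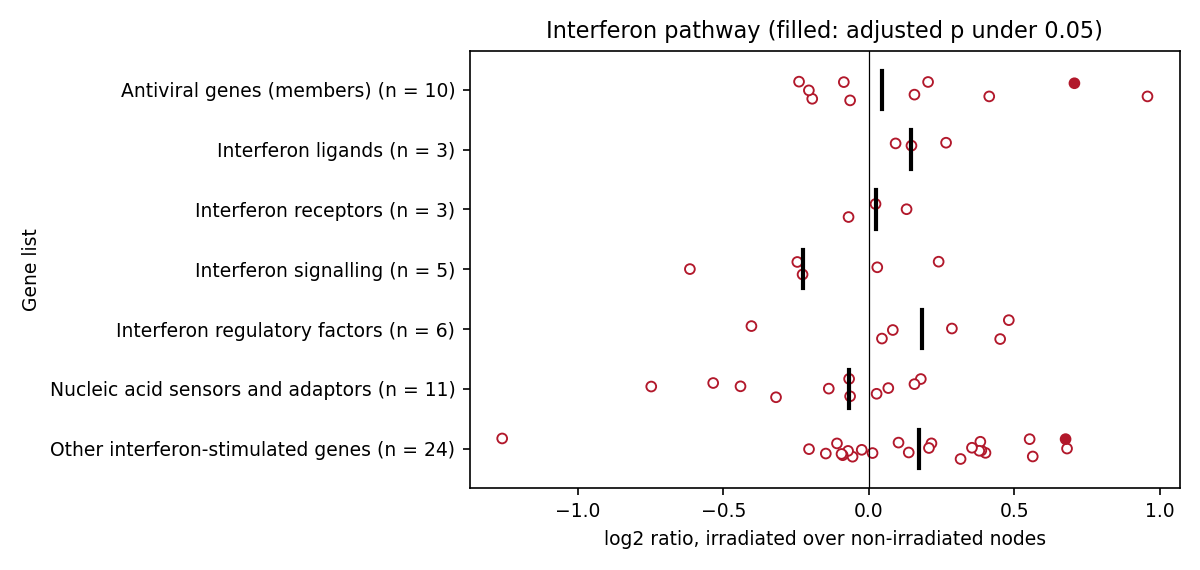
Log2 ratio between irradiated and non-irradiated nodes (x axis) for the antiviral genes and 6 lists of interferon pathway genes (rows); each point is a gene, filled where its adjusted p was under 0.05, and black bars are medians. The filled points are ISG20 and PSMB9, and the point farthest left is SIGLEC1.

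The levels of several cell type markers differed along with the groups. In whole nodes, fewer cells of a type and less RNA per cell cannot be told apart. The 3 measured plasma cell genes were higher in irradiated nodes (median 0.80), with authors' means summing to 2034 against 995 normalized counts, of which TNFRSF17 alone made up 1280 (authors' SD 1841) and 464 (authors' SD 908), and 8 of 9 B cell genes were higher (median 0.32, 14320 against 12017). Of 10 T cell genes 9 were lower (median -0.35, 11837 against 15930), as were 5 of 8 macrophage and monocyte genes (median -0.23, 3372 against 5369). MARCO made up 1109 and 2272 of the latter sums, with authors' SDs of 2197 and 1296. All 6 genes of conventional dendritic cells were lower (median -0.27, 4209 against 4906). In these sums CD83 made up 2025 and 2079, and CCR7 1199 (authors' SD 843) and 1710 (authors' SD 859.5). CCR7 is not particular to dendritic cells, and the study also measured it on CD4 T cells. Of these 5 lists 0 genes passed, and 2 plasma cell, 1 B cell, 2 T cell, 1 macrophage and 1 dendritic cell gene had an unadjusted p under 0.05. Over all genes 3.59% passed and 21.9% had an unadjusted p under 0.05. Centred on the median of the endogenous genes, 7 T cell and 5 conventional dendritic cell genes were lower. Of 4 genes of plasmacytoid dendritic cells, the main interferon producers in blood and nodes, 3 were lower (median -0.12, 630 against 646), and 0 passed or had an unadjusted p under 0.05. Of the 7 listed genes only SPIB, IL3RA, TLR7 and TLR9 were measured, and TLR7 and TLR9 were also counted among the sensors above. Of 9 natural killer and cytotoxic genes 6 were lower (median -0.13, 1309 against 1390), while the granule protease GZMB passed and was higher (0.92 ± 0.23 SE, adjusted p = 0.0419, and 0.883 with the samples of a dog assumed identical). The study reported GZMB as higher with ENI but not significantly different. In the natural killer and cytotoxic list 2 genes, GZMB and GZMA, were higher at an unadjusted p under 0.05. Another 2, EOMES (-0.72 ± 0.26 SE) and NCR1 (-0.61 ± 0.22 SE), were lower at that p. All 6 neutrophil genes were higher (median 0.21, 2322 against 2080), and 0 passed or had an unadjusted p under 0.05. In these sums S100A8 made up 784 (authors' SD 2145) and 766 (authors' SD 666). S100A12 made up 584 (authors' SD 1749) and 470 (authors' SD 474), and S100A9 411 (authors' SD 1026) and 345 (authors' SD 287).

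Of 9 stromal genes 6 were lower (median -0.30, 11275 against 16117), of which CXCL12, PDGFRA and PDGFRB passed. In these sums CXCL12 made up 1882 and 4767, and CCL21 3925 (authors' SD 3306) and 5278 (authors' SD 1192). The higher stromal genes were COL1A1 (0.24), COL3A1 (0.03) and CCL19 (0.02). All 5 endothelial genes were lower (median -0.68, 2382 against 3032), of which CDH5 passed. Over all genes 1.92% passed and were lower. At an unadjusted p under 0.05, 3 stromal and 4 endothelial genes were lower, beside 13.5% of all genes. With the samples of a dog assumed identical, the adjusted p was 0.295 for CXCL12, 0.203 for PDGFRA, 0.855 for PDGFRB and 0.727 for CDH5. Of 6 epithelial genes 4 were higher (median 0.24, 549 against 517; 5 higher under either centring), and KRT18 passed (1.09 ± 0.23 SE, adjusted p = 0.0215, and 0.818 with the samples of a dog assumed identical). In the epithelial list KRT18 was higher and CDH1 lower at an unadjusted p under 0.05. CDH1 had a log2 ratio of -0.48 ± 0.16 SE and did not pass (adjusted p = 0.109). None of the cell type markers was at 0, and the dimmest was MUC1 at 8.43 normalized counts in non-irradiated nodes. The part of the cell types in the ratios of ISG20, ISG15 and IFI35 was not tested.

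To place each gene among the rest, the 3 genes with the nearest log2 ratio were taken from those with a mean level of at least 20 normalized counts. With 2 groups this likeness rests on 1 ratio. For ISG20 they were the decoy receptor IL13RA2 (0.71), the chemokine CXCL8 (0.70) and the MHC class II gene DLA-DOB (0.72). For ISG15 they were LY86 (0.96), the chemokine CCL23 (0.95) and the survival gene BIRC5 (0.94). For IFI35 they included the apoptosis genes CASP8 (0.41) and FAS (0.41). For MX1 they were MR1, C1S and CCL13 (all -0.19). None of these 11 genes passed over all genes, with adjusted p-values from 0.0894 to 0.704.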

How the data were processed

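The label for irradiation status gave the groups, 6 samples of 3 dogs per group. The authors analysed the nCounter counts in nSolver (version, background and normalization settings not given in the sources used here) and deposited 1 signal value (normalized counts) and 1 SD per group for 800 probes, printed here as the authors' mean and SD. The table also holds the authors' own folds, limits, p-values and adjusted p-values, which were not used. The mean log2 ratio over 20 housekeeping genes was -2.62e-05, as geometric means scaled to these genes would. The log2 SD was recovered from the deposited SD and mean under a log-normal distribution. The deposited SD was assumed to be over the 6 samples of a group. Were it over dog averages instead, the SEs, degrees of freedom and p-values given here would not hold. Variances were pooled over groups (10 degrees of freedom), moderated over the 780 endogenous genes with limma 3.58.1 in R 4.3.3, and two-sided p-values were adjusted over those genes (Benjamini-Hochberg; threshold 0.05). With identical samples of a dog the SE before moderation is 1.58 times as large, with 4 degrees of freedom. P-values over samples are too small if the 2 samples of a dog resemble each other. The genes named are the 10 antiviral genes, members of fixed lists that passed, the 2 highest and 2 lowest of each pathway list, the receptors, kinases and STAT factors of the lists (1 gene of the signalling list is not reported here), and the nearest genes by ratio. Some other members of the marker lists are named as well. The members and lists were chosen with earlier results of these data known. Of 10 symbols, 10 matched the RefSeq gene table of the dog.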

Additional observations from a re-analysis of the deposited data

How the results depend on the processing

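Of 130 values of the 10 antiviral genes under 13 other settings, 126 kept direction and side of the threshold and 0 changed direction. The other 4 are the ISG20 call. Only centring and pseudocounts altered the ratios, so under the remaining settings no direction could change. Genes far from the threshold, such as IFIH1 (adjusted p = 0.944 by limma's test in the main fit), could hardly cross it. Against 28 genes in all and 1 antiviral gene past the threshold, the numbers were 0 and 0 with the samples of a dog assumed identical, 16 and 0 with the first-order log2 SD, 17 and 0 with the mean taken as arithmetic, and 7 and 0 with Benjamini-Yekutieli adjustment (ISG20 adjusted p = 0.314), which is stricter by construction. A pseudocount of 20 normalized counts gave 47 in all, with 1 antiviral gene. The 28 genes were 13 higher and 15 lower; the split was 11 and 24 without moderation, 13 and 25 both with a trend on level and with a minimum level of 20, and 15 and 32 with that pseudocount. The cause was not tested. Over the 13 settings the adjusted p of ISG20 ranged from 0.0332 to 0.999. Genes with a higher mean in irradiated nodes made up 45.1%, and 47.9% and 50.0% after centring on the median of housekeeping and of endogenous genes. Leaving out a sample or dog was not run, since the values are group summaries. No paired analysis was possible because no dog is in both groups.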
